A study of Sus scrofa with 48 samples.

Results

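Transcripts of aldehyde dehydrogenases were followed in the dorsal subcutaneous adipose tissue (SCAT) of 48 Large White barrows aged 132 days. The genes were ALDH2, ALDH1A1, ALDH1A2, ALDH1B1, ALDH3A2, ALDH4A1, ALDH7A1, ALDH9A1 and ALDH18A1. They were chosen by name, and a probe of the porcine array with 1 of these 9 names was kept when 9 or more of the 12 arrays in some group showed it well above background. In all, 24 of the 25 probes with such a name were kept, out of 44356 kept probes, and they covered 6 of the 9 genes, out of 11130 genes with a kept probe. ALDH2 had 11 kept probes, ALDH9A1 had 6, ALDH1A1, ALDH1B1 and ALDH18A1 had 2 each, and ALDH7A1 had 1. ALDH2 was chosen because its signal was higher in low RFI pigs over many probes, so that its differences between lines are given as a description, with no test.

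The barrows belonged to a pair of lines bred apart for residual feed intake (RFI), the part of feed intake that growth does not account for, and a low RFI pig is the more efficient one. The labels write RFIneg for low RFI and RFIpl for high RFI. Feed was offered ad libitum and was rich in fat and fiber (HF) for some pigs of each line and rich in starch, with little fat or fiber (LF), for the others. Either diet was thus given to 12 pigs of either line, which made 4 groups, with 1 array per pig. All values are log2 signals minus the median of the array, so that a value of 0 is the level of the median kept probe, and levels of different probes are not set against each other. Between 62.2% and 81.9% of the probes of an array were well above background, no spot was saturated, and the 3 arrays with the fewest such probes (62.2%, 65.7% and 67.3%) were all from HF pigs. Each of the 6 slides held 2 arrays of every group, and each of the 2 scan dates held 6 arrays of every group.

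Aldehyde dehydrogenases oxidise aldehydes to acids with the help of a nicotinamide cofactor. ALDH2 is the mitochondrial enzyme known for clearing acetaldehyde and lipid peroxidation products such as 4-hydroxynonenal, and ALDH1B1 is its close mitochondrial relative. ALDH1A1 and ALDH1A2 turn retinal into retinoic acid, a signal that acts on fat cell development. ALDH9A1 acts on aminoaldehydes, among them the precursor of carnitine, and ALDH7A1 acts in lysine and choline breakdown. ALDH4A1 and ALDH18A1 belong to proline breakdown and proline synthesis, and ALDH3A2 oxidises long-chain fatty aldehydes.

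The ALDH2 probes were spread along the transcript and did not all measure independent stretches. The array annotation placed 9 of them, from base 487 to base 1987 of the ALDH2 transcript record, and no genome position was given for any probe. Probes spread from the start towards the end and the brightest probe are shown because they carry the difference between lines described below. A_72_P228377 starts at base 487, A_72_P635016 at base 1184 and A_72_P610194 at base 1362, and the first 30 bases are shown of A_72_P635130, the brightest probe, which starts at base 1897. Capitals mark the run of 59 bases that A_72_P635016 and CUST_322_PI427286967 share, so that both read 1 place of the transcript.

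A_72_P228377: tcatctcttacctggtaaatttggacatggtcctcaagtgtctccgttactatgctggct
A_72_P635016: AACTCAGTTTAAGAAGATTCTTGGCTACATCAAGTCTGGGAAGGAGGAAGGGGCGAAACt
CUST_322_PI427286967: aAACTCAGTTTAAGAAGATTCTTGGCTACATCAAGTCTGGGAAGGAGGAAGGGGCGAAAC
A_72_P610194: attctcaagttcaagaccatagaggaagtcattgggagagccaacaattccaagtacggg
A_72_P635130: tgaaatgtctcatcctgtccatctgataca

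O10280 and A_72_P217642 shared 57 bases in the same way. A further 3 overlapping probes, which start at bases 1777, 1799 and 1818, did not all follow the same transcript sequence. Capitals in the next lines mark a run of G in their overlap, 4 bases long in A_72_P582312 and A_72_P588561 and 3 bases long in A_72_P602113. A run of A further on was 3 bases long in A_72_P602113 and 2 bases long in A_72_P588561.

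A_72_P582312: tGGGGcaaaaggtacatgg
A_72_P602113: tGGGcaaaaggtacatgg
A_72_P588561: tGGGGcaaaaggtacatgg

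No member probe shared more than 15 bases in a row, on either strand, with any of the other 60280 probes of the array. Between genes of the family, the longest shared run was 18 bases, and it joined opposite strands. Capitals mark it in the ALDH2 probe A_72_P623783, which starts at base 1620 (first 30 bases shown), and its reverse complement in the ALDH1A1 probe O9202. Against the ALDH2 transcript the O9202 probe thus ran in the reverse direction, while its longest run shared with an ALDH2 probe on the same strand was 7 bases. The other ALDH1A1 probe, A_72_P052071, also shared at most 7 bases with an ALDH2 probe on the same strand.

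A_72_P623783: gtcaaagttcCTCAGAAGAACTCATAAAga
O9202: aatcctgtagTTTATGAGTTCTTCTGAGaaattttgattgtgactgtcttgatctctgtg
A_72_P052071: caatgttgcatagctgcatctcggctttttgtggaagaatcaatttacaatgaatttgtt

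ALDH2 was higher in low RFI than in high RFI pigs on each of its 11 probes, by 0.64 to 0.73 on the log2 scale, or 1.56 to 1.66 fold. On the brightest probe, A_72_P635130, the lowest, median and highest log2 values under the HF diet were 4.89, 5.98 and 6.93 for low RFI and 4.95, 5.33 and 6.32 for high RFI. Under the LF diet the same values were 4.86, 6.19 and 6.53 for low RFI and 3.89, 5.18 and 5.95 for high RFI. The ranges of the 4 groups overlapped, and the medians of both low RFI groups lay above those of both high RFI groups. Under the HF diet 11 of 12 low RFI pigs were above the mean of the high RFI pigs and 2 were above all of them. Under the LF diet 11 of 12 low RFI pigs were above that mean and 8 were above every high RFI pig.

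The order of the group means on A_72_P635130 was low RFI under LF (6.07 ± 0.49, SD, n = 12), low RFI under HF (5.92 ± 0.54), high RFI under HF (5.42 ± 0.41) and high RFI under LF (5.23 ± 0.58). Between the first and the second of these, the difference between diets within low RFI pigs was -0.15 and was not called (limma adjusted p = 0.80). Nor was the difference of 0.19 between the third and the fourth, within high RFI pigs (limma adjusted p = 0.73). The difference between lines was 0.46 to 0.60 over the 11 probes under the HF diet and 0.79 to 0.86 under the LF diet.

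The size of the line difference was close to equal along the ALDH2 transcript. It was 0.73 on A_72_P228377, 0.64 on A_72_P635016, 0.67 on A_72_P610194, 0.68 on A_72_P623783, 0.67 on A_72_P635130 and 0.64 on A_72_P217642. The 3 overlapping probes that differ in their runs of G and A gave 0.69, 0.68 and 0.65 for A_72_P582312, A_72_P602113 and A_72_P588561. Once group means were removed, the 11 probes varied together from pig to pig, with Pearson's r from 0.82 to 0.99 over the 55 pairs of probes (median 0.96, 48 arrays). These probes share their arrays and their transcript and are not replicates of a group. The difference between lines was 0.62 to 0.69 over the 11 probes among the 24 arrays of the first scan date and 0.64 to 0.81 among those of the second. Without the 3 arrays with the fewest probes well above background it was 0.63 to 0.71.

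The signal near the start of a transcript falls relative to its end as RNA breaks down, so the difference between an end probe and a start probe was followed in each group. For ALDH2 (A_72_P635130 minus A_72_P228377) it was 6.15 ± 0.33 (SD, n = 12) for low RFI and 6.25 ± 0.37 for high RFI under the HF diet. Under the LF diet it was 6.30 ± 0.29 for low RFI and 6.31 ± 0.50 for high RFI. For ALDH9A1 (A_72_P025101 minus A_72_P007411) the group means lay between 6.35 and 6.43. All of these group means lay within 1 SD between pigs of each other for the same gene, which is not a test of the means. The part of RNA breakdown in the ALDH2 values was not tested.

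**Figure D1:**
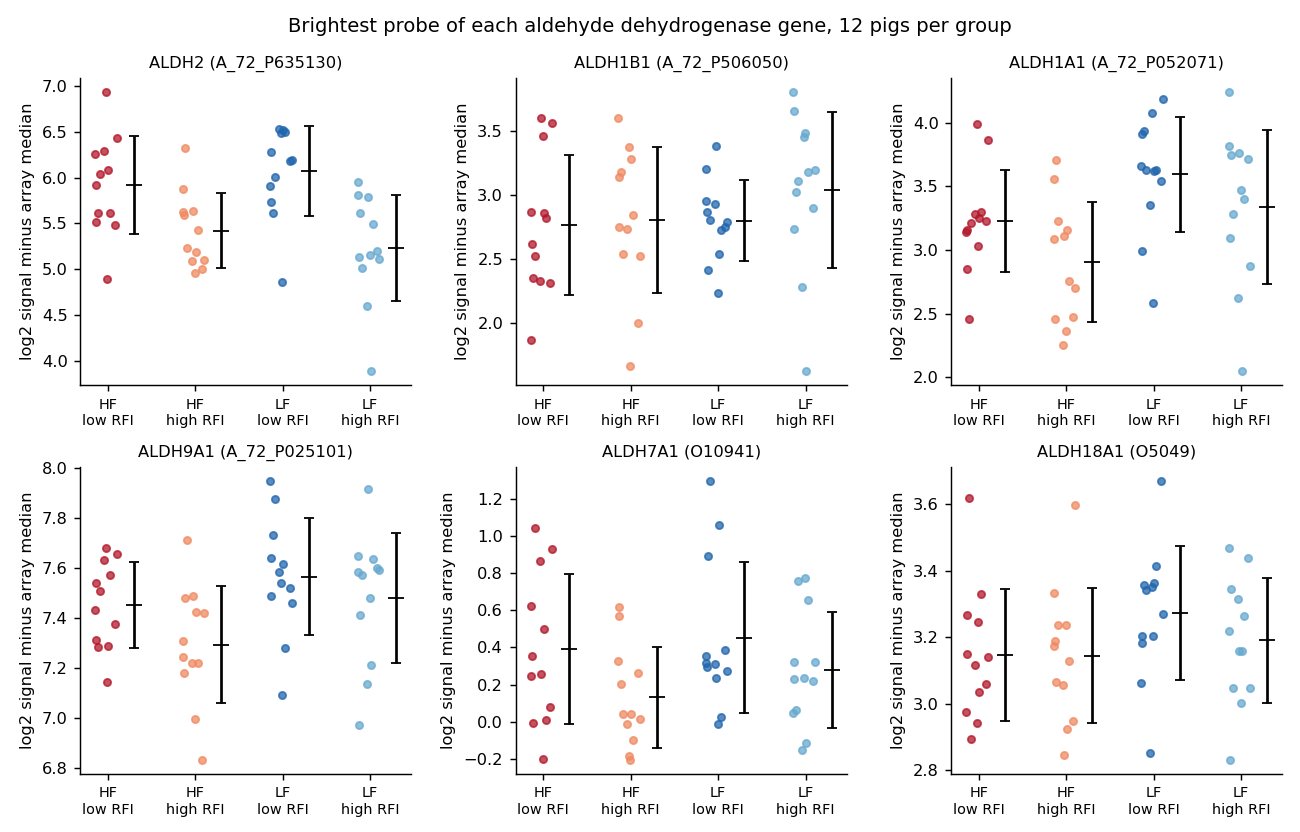
Log2 signal minus the array median (y axis) on the brightest kept probe of the 6 aldehyde dehydrogenase genes, with 1 point for each of the 12 pigs of a group and a bar for the group mean ± SD. In the ALDH2 panel the low RFI groups center on 5.92 and 6.07 and the high RFI groups on 5.42 and 5.23, while in the ALDH1A1 panel the LF groups center on 3.59 and 3.34 and the HF groups on 3.23 and 2.91, for low and high RFI in turn.

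ALDH1A1 was under-expressed in HF pigs, while no ALDH2 probe was called by diet. In all, 3 of the 24 member probes were differentially expressed (DEP) between diets (raw p under 0.01, fold change over 1.1 and Benjamini-Hochberg adjusted p under 0.08), against 13.1% of all kept probes. The 3 probes were both ALDH1A1 probes and 1 of the 6 ALDH9A1 probes, and all 3 were lower in HF pigs, against 7.44% of all kept probes called lower. The median difference between diets was -0.07 over the 24 probes and -0.02 over all kept probes.

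For ALDH2 the difference between diets was 0.01 to 0.13 over the 11 probes (limma adjusted p = 0.74 to 0.97). Its 95% interval on A_72_P635130 ran from -0.26 to 0.31, and the widest interval, on A_72_P228377, ran from -0.27 to 0.53. The differences measured for ALDH1A1, given below, lay outside these ALDH2 intervals. The 95% interval of ALDH1A1 itself, -0.67 to -0.12 on A_72_P052071, overlapped them, and no test compared ALDH1A1 with ALDH2. Within low RFI pigs 10 of the 11 ALDH2 probes were below 0 for diet, down to -0.16, and within high RFI pigs all 11 were above 0, from 0.18 to 0.28, and none was called in either line.

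Both probes named ALDH1A1, which differ in sequence, were lower under the HF diet. O9202 was dim, with a background-subtracted signal of 25.7 to 141, although it was well above background on all 48 arrays. On A_72_P052071 the lowest, median and highest log2 values under the HF diet were 2.46, 3.22 and 3.99 for low RFI and 2.26, 2.92 and 3.71 for high RFI. Under the LF diet they were 2.58, 3.63 and 4.19 for low RFI and 2.05, 3.44 and 4.24 for high RFI. The ranges overlapped, with 10 of 12 HF pigs below the LF mean of their line in each line. The difference between diets was -0.40 (SE 0.14, 1.32 fold lower, limma adjusted p = 0.0482). On O9202, which ran in the reverse direction, the lowest, median and highest values under HF were -2.36, -2.01 and -1.35 for low RFI and -2.70, -2.43 and -1.50 for high RFI. Under LF they were -2.62, -1.72 and -1.20 for low RFI and -3.24, -1.82 and -1.40 for high RFI, again with overlap of all groups. There the difference between diets was -0.35 (SE 0.11, 1.28 fold lower, limma adjusted p = 0.0329), with 11 of 12 HF pigs below the LF mean in low RFI pigs and 10 of 12 in high RFI pigs. From pig to pig the signals of both probes moved together (r = 0.83 after removal of group means), and whether O9202 reads the ALDH1A1 messenger or a transcript of the other strand was not tested.

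The fall of ALDH1A1 was of like size in both lines. On A_72_P052071 it was -0.36 (SE 0.19) in low RFI pigs and -0.43 (SE 0.19) in high RFI pigs, and neither was called alone. Among the arrays of the first scan date it was -0.45 on A_72_P052071 and -0.46 on O9202, and both probes were called. Among those of the second it was -0.35 and -0.25, and neither was called. With array position on the slide as a term of the model no member probe was called by diet, against 9.66% of all kept probes, and the ALDH1A1 difference was -0.36 on A_72_P052071 (limma adjusted p = 0.15) and -0.28 on O9202 (limma adjusted p = 0.19). Without the 3 arrays with the fewest probes above background, A_72_P052071 remained called at -0.41 and O9202, at -0.32, did not.

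ALDH9A1 was lower in HF pigs on all 6 of its probes, by 0.12 to 0.19 on the log2 scale, but 1 of the 6 passed the test. That probe, O5468, gave a difference of -0.19 (SE 0.0647, limma adjusted p = 0.0488). Its sequence is the same, over all 60 bases, as that of A_72_P025101, whose difference was -0.15 (SE 0.0647, limma adjusted p = 0.13). Their first 30 bases are shown because this pair gives the error of 1 measurement taken at 2 spots of each array.

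O5468: gggttgcagtccttgaattatagcttgttc
A_72_P025101: gggttgcagtccttgaattatagcttgttc

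O5468 lay 0.06 below A_72_P025101 on average, with an SD of 0.10 over the 47 arrays where both were measured, and 1 spot of O5468 had been flagged. Within groups the SD between pigs on O5468 averaged 0.22, and the correlation of the pair was r = 0.89 after removal of group means. The call of 1 spot and not of the other thus rested on a gap of 0.04 between their differences. On O5468 the lowest, median and highest values under HF were 6.94, 7.41 and 7.57 for low RFI and 6.87, 7.20 and 7.56 for high RFI. Under LF they were 6.96, 7.56 and 7.82 for low RFI and 6.96, 7.47 and 8.04 for high RFI, so that all 4 groups overlapped. Of the other 4 ALDH9A1 probes, A_72_P007411 (-0.18) and A_72_P616199 (-0.17) had a raw p of 0.0276 and 0.0306 in limma, and A_72_P616959 (-0.16) and A_72_P565684 (-0.12) one of 0.0655 and 0.40. The O5468 call was lost with 75th percentile scaling (-0.15, limma adjusted p = 0.10) and on each scan date alone.

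**Figure D2:**
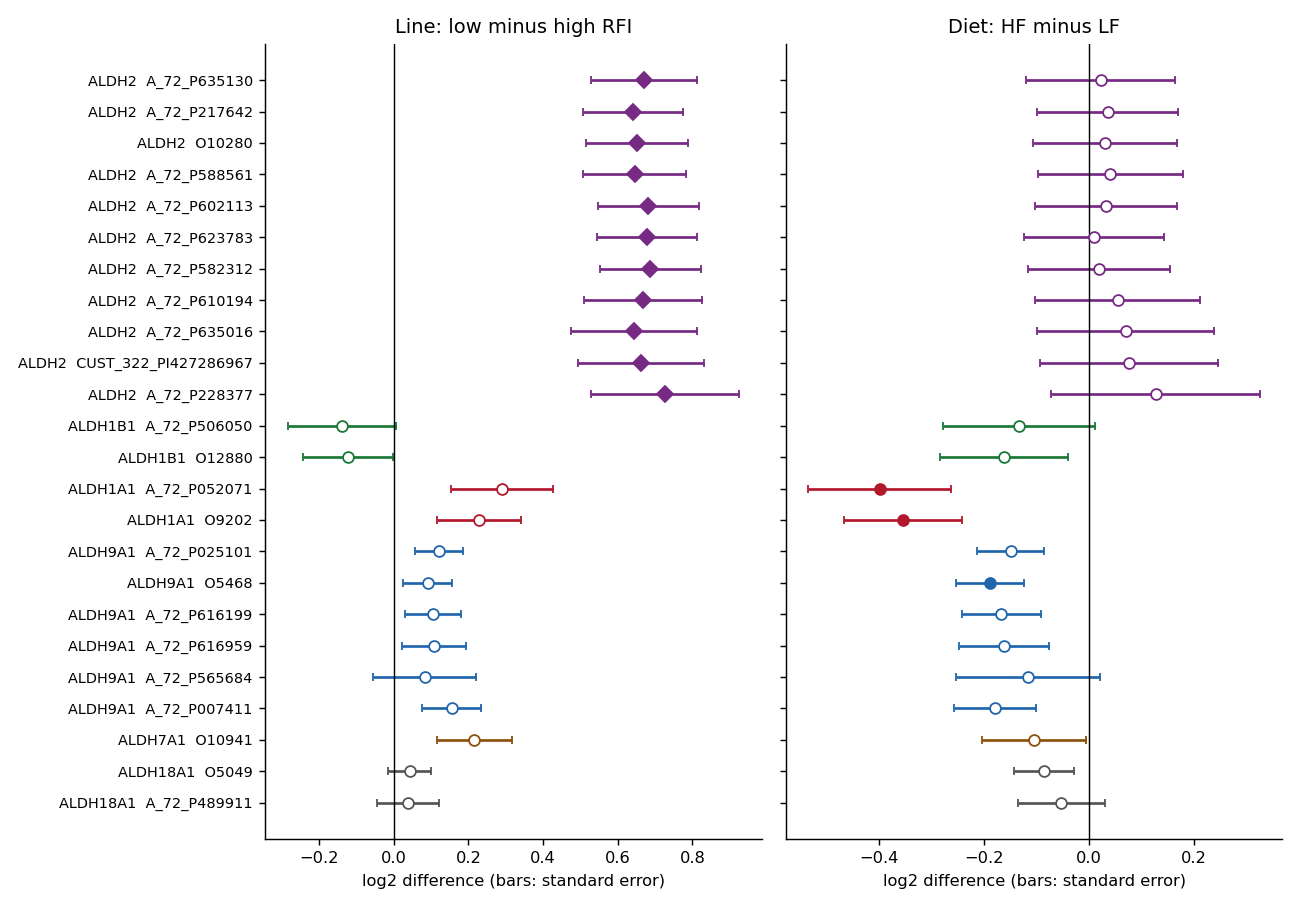
Log2 difference (x axis) between lines on the left and between diets on the right for the 24 kept probes (y axis, grouped by gene), with bars for the standard error. Filled circles are called and open circles are not, and diamonds are the ALDH2 line differences, which carry no test. The 11 ALDH2 diamonds lie between 0.64 and 0.73 on the left, and the called circles on the right are both ALDH1A1 probes and the ALDH9A1 probe O5468.

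For the other genes of the family neither diet nor line gave a called probe. ALDH1B1, the mitochondrial relative of ALDH2, had diet differences of -0.13 and -0.16 (limma adjusted p = 0.61 and 0.43). On A_72_P506050 its median was 2.72 for low and 2.80 for high RFI under HF, and 2.80 for low and 3.15 for high RFI under LF. Its line differences, -0.14 and -0.12 on A_72_P506050 and O12880, had the opposite sign to those of ALDH2 and were not called (limma adjusted p = 0.87 and 0.85). ALDH7A1, read by the single probe O10941, had medians of 0.30, 0.04, 0.32 and 0.23 in the groups in the same order, and a diet difference of -0.10 (95% interval -0.31 to 0.10). ALDH18A1, which opens proline synthesis, had diet differences of -0.09 and -0.05 and line differences of 0.04 on both O5049 and A_72_P489911. Its 95% intervals for line ran from -0.13 to 0.20 over both probes.

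The difference between lines was tested on the 13 probes of the family outside ALDH2. None was called with limma and none with the methods' analysis of variance without moderation, against 1.37% of all kept probes called with limma. With no adjustment, 3 of the 13 had a raw p under 0.05, namely both ALDH1A1 probes and ALDH7A1. ALDH1A1 was higher in low RFI pigs by 0.29 (SE 0.14, limma adjusted p = 0.43) on A_72_P052071 and by 0.23 (SE 0.11, limma adjusted p = 0.47) on O9202. ALDH7A1 was higher by 0.22 (SE 0.10, limma adjusted p = 0.41). The 6 ALDH9A1 probes gave 0.08 to 0.16 in the same direction, but on the first scan date alone they ran from -0.10 to 0.09.

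No member probe was called for the interaction of diet and line, nor was any of the kept probes (0% of 44356, limma), and none of the 24 had a raw p under 0.05. For ALDH2 the line difference was smaller under the HF diet by 0.25 to 0.40 over the 11 probes (raw p = 0.20 to 0.53). This gap did not keep its sign across scan dates: the HF minus LF gap between line differences was 0.07 to 0.28 on the first and -0.88 to -0.70 on the second. Within low RFI pigs no member probe was called by diet, against 3.04% of all kept probes, and none had a raw p under 0.05. Within high RFI pigs none was called, against 1.66% of all kept probes, and 7 had a raw p under 0.05, namely both ALDH1A1 probes and 5 of the 6 ALDH9A1 probes.

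For 3 of the 9 genes the array gave no level. ALDH4A1 had a single probe, O8917, that was well above background under HF on 3 of 12 arrays for low RFI and 1 for high RFI, and under LF on 2 arrays in each line. It was thus far outside the limit of 9 arrays, while the 24 kept probes were all well above background on all 48 arrays. No probe carried the name ALDH1A2, the other retinal-oxidising member, or ALDH3A2.

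ALDH2 and ALDH1A1 varied together from pig to pig. After removal of group means, ALDH1A1 had the highest Pearson's r with ALDH2 over all 48 arrays of the 11129 other genes with a kept probe, each read by its brightest probe. It was not first by every measure, since Spearman's rho was higher for LSS (0.63) and KYAT3 (0.62), and on the second scan date alone r was higher for KYAT3, PGD, ADHFE1 and SPAG17 (0.69 to 0.76). Pearson's r between A_72_P635130 and A_72_P052071 was 0.72 and Spearman's rho was 0.61 over 48 arrays, and both had p = 1e-05 in a permutation test within groups (two-sided, 100000 resamples), the smallest p these can give. The value adjusted over the 15 pairs of the 6 genes was 7.5e-05 for each. Without the 2 pigs farthest from the median of ALDH2, r was 0.61. It was 0.66 on the first scan date and 0.67 on the second, and 0.67 after slide means were also removed. Over all genes the r with ALDH2 had a median of 0.02, and 95% of genes lay between -0.36 and 0.49.

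ALDH1B1 was related to both. Its r was 0.59 with ALDH2 (adjusted permutation p = 0.0003, rho = 0.56) and 0.67 with ALDH1A1 (adjusted permutation p = 7.5e-05, rho = 0.61), and without the 2 farthest pigs r was 0.48 and 0.59. The r of ALDH9A1 with ALDH2 was 0.48 (adjusted permutation p = 0.00243), but it was 0.01 on the first scan date and 0.60 on the second. ALDH7A1 behaved likewise with ALDH2, with r = 0.34 over all arrays (adjusted permutation p = 0.0481 for r and 0.0764 for rho), -0.05 on the first scan date and 0.57 on the second. ALDH18A1 had an r between -0.13 and 0.02 with each of the other 5 genes, with 0.596 as the lowest adjusted permutation p for r and 0.298 for rho. Of the 15 pairs, 8 had an adjusted p under 0.05 for r, a count that was not set against pairs of other genes. In r with ALDH2, ALDH1B1 ranked 41, ALDH9A1 ranked 315 and ALDH7A1 ranked 1306 among the 11129 other genes. The r of ALDH9A1 and of ALDH7A1 with ALDH2 thus lay inside the range of -0.36 to 0.49 that held most genes, and that of ALDH1B1 lay above it.

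Single pigs took part in more than 1 of these relations. In LF high RFI pigs replicate 12 had the lowest value of ALDH2 (3.89), ALDH1A1 (2.05) and ALDH1B1 (1.63). In LF low RFI pigs replicate 7 had the lowest value of ALDH2 (4.86), ALDH1A1 (2.58), ALDH1B1 (2.24), ALDH7A1 (-0.01) and ALDH9A1 (7.09). On the brightest ALDH2 probe replicate 7 was also lowest in both HF groups. On other ALDH2 probes, A_72_P217642 among them, replicate 3 was lower than replicate 7 in HF high RFI pigs. The 3 arrays of replicate 7 named here lay on 1 slide. Their shares of probes well above background, from 75.4% to 78.5%, were within the range of the other arrays.

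**Figure D3:**
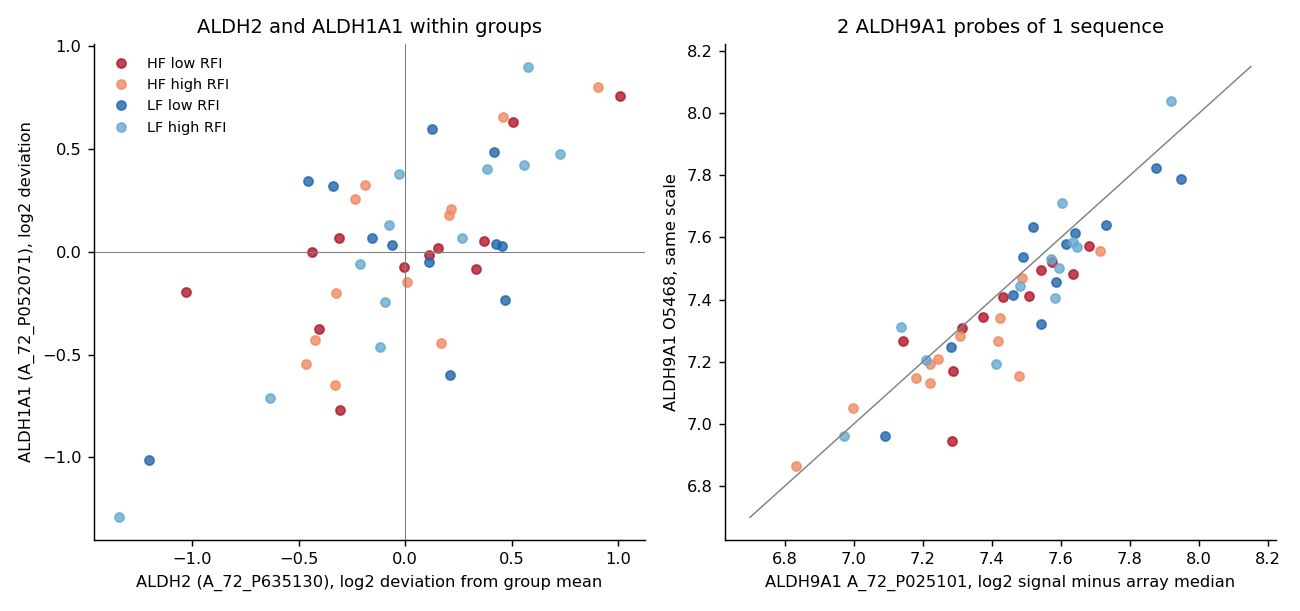
Left: log2 deviation from the group mean of ALDH1A1 (y axis) against that of ALDH2 (x axis), with 1 point for each of the 48 pigs colored by group, where r was 0.72 and pigs low in ALDH2 were also low in ALDH1A1. Right: log2 signal minus the array median of the 2 ALDH9A1 probes of 1 sequence for the 47 arrays where both were measured, with a line of equality, where the points scatter around the line with an SD of 0.10 between both probes.

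Outside the family, the 6 genes with the highest Pearson's r with ALDH2 after removal of group means were ADHFE1 (r = 0.69), PGD (0.67), SPAG17 (0.66), ATP6V0E1 (0.65), KYAT3 (0.64) and LSS (0.64). ADHFE1 is a mitochondrial alcohol dehydrogenase, PGD an enzyme of the pentose phosphate pathway, KYAT3 an aminotransferase and LSS the lanosterol synthase of cholesterol synthesis. Their r ran from 0.31 to 0.50 on the first scan date and from 0.61 to 0.76 on the second, and from 0.58 to 0.67 with slide means removed. None of the 6 was called by line, and SPAG17 (0.82) and KYAT3 (-0.18) were called by diet. The 3 with the lowest r were CFD (-0.61), HIF3A (-0.58) and SCNM1 (-0.57), of which CFD, the fat cell protease adipsin, had r = -0.15 on the first scan date and -0.73 on the second. All of these correlations share the arrays and their centring.

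The marker genes of SCAT cells were read beside these results. Of 12 adipocyte markers 11 were kept, ADIPOQ, FABP4 and PLIN1 among them, and their summed level per array (log2) ran from 11.5 to 11.8 for low and 11.3 to 11.8 for high RFI under HF, and 11.4 to 11.8 for low and 11.3 to 11.8 for high RFI under LF. No adipocyte marker was called by line, and LEP alone was called by diet, lower in HF pigs by 0.67 (SE 0.16). PDGFRA, a stromal marker, was higher in HF pigs by 0.31 (SE 0.11), and no other marker of 10 stromal, 7 endothelial, 9 macrophage, 9 skeletal muscle, 7 blood cell and 5 hepatocyte genes with a kept probe was called by diet or line. On the second scan date alone neither LEP nor PDGFRA was called, and PDGFRA was not called on the first alone. The macrophage sum ran from 4.62 to 6.69 and from 5.25 to 6.82 in low and high RFI pigs under HF, and from 4.85 to 6.99 and 5.15 to 6.63 under LF. The r of ALDH2 with these sums after removal of group means lay between -0.17 and 0.34. In bulk tissue, fewer cells of a type and less RNA per cell cannot be told apart, and the part of cell makeup in the differences of ALDH2 and ALDH1A1 was not tested.

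Genes that make, pass on or remove the substrates of these enzymes were counted in 7 lists, with each gene read by its brightest probe. A kept probe was found for 70 of the 99 genes listed. By diet 10 of the 70 were called, against 12.7% of all 11130 genes, 1 of them higher in HF pigs and 9 lower, against 3.29% and 9.36% of all genes. By line 3 of the 70 were called, against 1.17% of all genes, and all 3 were higher in low RFI pigs, against 0.782% of all genes. The median difference of the 70 genes was -0.04 for diet, equal to that of all genes at this precision, and 0.03 for line, against 0.02 over all genes.

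Among genes of retinoid handling, which bind, make or remove retinoids or respond to them, 3 of 22 were called lower in HF pigs. Over all genes 9.36% were called lower, and none of the 22 was called higher. RBP2 fell by 1.17 (SE 0.29, limma adjusted p = 0.00652) near the detection limit, well above background on 10 and 7 of 12 arrays in the HF low and high RFI groups and on 12 and 11 in the LF groups. RDH11, a retinal reductase, fell by 0.32 (SE 0.11, limma adjusted p = 0.0452), a call lost when all probes of the gene were averaged (-0.25) and on the second scan date alone. DHRS4, a retinal reductase of peroxisomes, was the list's call by line, higher in low RFI pigs by 0.51 (SE 0.13, limma adjusted p = 0.035), with 0.31 on the first scan date and 0.70 on the second.

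Fatty aldehyde sources gave 3 calls by diet and 2 by line among 8 genes, against 12.7% and 1.17% of all genes. PHYH, which opens the alpha-oxidation of phytanic acid, was lower in HF pigs by 0.27 (SE 0.08, limma adjusted p = 0.0232) and higher in low RFI pigs by 0.38 (SE 0.08, limma adjusted p = 0.0113). Its median was 5.76 for low and 5.30 for high RFI under HF, and 5.97 for low and 5.67 for high RFI under LF, so that the low RFI median was the higher one under each diet. TMEM189, the desaturase that makes plasmalogens, had the same directions, with -0.24 for diet (SE 0.07) and 0.34 for line (SE 0.07). SGPP1, a sphingosine-1-phosphate phosphatase, was lower in HF pigs by 0.16 (SE 0.05), a call lost with 75th percentile scaling. The calls of TMEM189 and SGPP1 were lost on each scan date alone, and those of PHYH on the second.

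Of the other aldehyde dehydrogenases 6 of 10 had a kept probe, and 1 was called by diet, against 12.7% of all genes. ALDH5A1, the succinate semialdehyde dehydrogenase of GABA breakdown, fell by 0.37 (SE 0.13, limma adjusted p = 0.0468) in HF pigs. In the list of alcohol and aldehyde oxidation and reduction, 2 of 15 genes were called by diet, against the same 12.7%. AKR1B1, the aldose reductase, fell by 0.38 (SE 0.09, limma adjusted p = 0.00386), and ADH4 was higher by 0.63 (SE 0.23, limma adjusted p = 0.0589), with 0.28 on the first scan date and 0.99 on the second, although it was well above background on 7 to 10 of 12 arrays per group. TMLHE, the first enzyme of carnitine synthesis, fell by 0.20 (SE 0.06) and was the 1 call among 5 genes of that list, the pathway in which ALDH9A1 also acts. None of 8 genes of proline and glutamate metabolism and none of 6 genes of lysine and choline breakdown was called by diet or line with limma. On the first scan date alone, 5 of the 10 calls by diet (ADH4, ALDH5A1, RBP2, SGPP1 and TMEM189) and 2 of the 3 by line (DHRS4 and TMEM189) were lost. On the second alone, 2 of the 70 genes were called by diet and none by line, so that 8 of the 10 calls by diet and all 3 by line were lost.

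**Figure D4:**
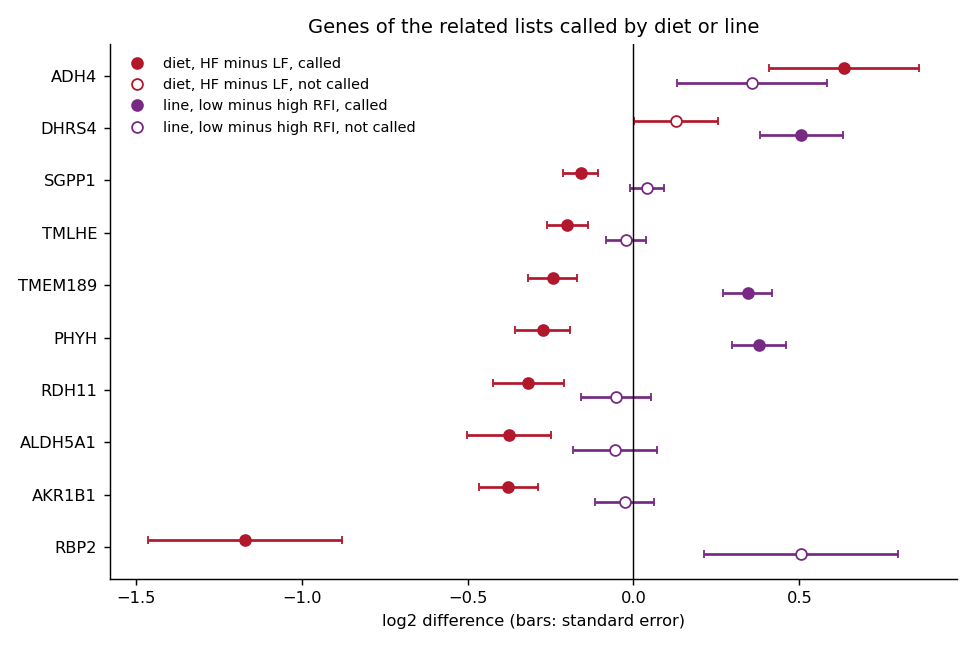
Log2 difference (x axis) of 10 genes of the related lists (y axis) that were called by diet or line, red for diet (HF minus LF) and purple for line (low minus high RFI), with bars for the standard error and filled points for calls. RBP2 lies farthest to the left for diet at -1.17, and PHYH and TMEM189 are filled for both factors, to the left for diet and to the right for line.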

How the data were processed

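Cy3-labelled cRNA of 48 SCAT samples was put on custom Agilent arrays for pig (8 arrays per slide), and the authors read the spots with Feature Extraction 10.7.3.1. Spot intensity is linear in these deposited files. The authors also deposited a log2 table of 38987 probes, which held the log2 of the median spot signal minus the array median. The submitters' processing notes name R 2.10.0.

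Here, flagged spots were set to missing, and log2 of the background-subtracted signal minus the array median over 44356 kept probes was used. A probe was kept when well above background on at least 9 of 12 arrays of a group. Diet, line and interaction were fitted to all 48 arrays with limma 3.58.1 (lmFit, eBayes with trend) in R 4.3.3, two-sided. DEP calls took the study's cut-offs (raw p under 0.01, fold over 1.1, Benjamini-Hochberg value under 0.08, over all kept probes or, for lists, all genes). Probes were named by accession, gene number or gene name through reference tables of Sscrofa11.1, and a gene was read by its kept probe of highest mean signal (11130 genes). The fit was tested on simulated data.

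All members with every kept probe were named, of the other lists every gene called (at most 4 per list and contrast), and the 6 genes most and 3 least like ALDH2. A gene that meets this rule is counted but not reported here. Members and lists were chosen with earlier results of these data known. Each array was 1 pig, and the number of arrays limits the precision. Correlations used deviations from group means and permutation within groups. Alternatives covered background correction, scaling, filter, slide, scan date, array position, replicate number, the methods' analysis of variance and the deposited table. Leaving out the 3 arrays with the fewest probes above background, and gene lists within scan dates, were added after seeing the data.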

Additional observations from a re-analysis of the deposited data

How the results depend on the processing

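The ALDH2 line difference, the value ALDH2 was chosen for, had a median over 11 probes of 0.67 and of 0.64 to 0.68 over 14 alternatives, which is a description. The count of 3 member probes called by diet was 2 or 3 under 13 of 15 alternatives, and 0 with array position as a block and 0 on the second scan date alone. All 3 probes stayed below 0 in all 15, with ALDH1A1 called in 13 (A_72_P052071) and 12 (O9202) and ALDH9A1 O5468 in 9. The counts of 0 for line outside ALDH2, for the interaction and for diet within each line stayed at 0 in all 15. The pathway lists gave 2 calls by diet and 0 by line on the second scan date alone, and their counts were within 1.5 times in the other 5 alternatives. Gene by gene, the first scan date alone lost 5 of 10 calls by diet and 2 of 3 by line, and the second lost 8 and 3. The deposited log2 table held 23 of the 24 member probes. The causes of these changes were not tested.

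Values that were not called changed sign, and those of the brightest or called probes were as follows. For the interaction, ALDH2 A_72_P635130 was 0.11 on the first scan date, where all 11 ALDH2 probes were above 0 (0.07 to 0.28). On the second scan date it was -0.0074 for ALDH1A1 O9202, -0.20 for ALDH7A1, -0.039 for ALDH9A1 A_72_P025101, -0.0095 for ALDH9A1 O5468 and 0.042 for ALDH18A1 O5049. With array position as a block it was -0.20 for ALDH1A1 A_72_P052071, -0.0060 for ALDH1A1 O9202, -0.061 for ALDH9A1 A_72_P025101 and -0.062 for ALDH9A1 O5468. Without the 3 arrays with the fewest probes above background it was -0.0037 for ALDH7A1. For line, ALDH1B1 A_72_P506050 was 0.00087 on the second scan date and ALDH18A1 O5049 was -0.029 on the first. Other probes also changed sign on the first scan date, down to -0.01 for diet in ALDH2 and, for line, down to -0.10 in ALDH9A1 and in ALDH18A1. For the interaction, both ALDH18A1 probes were above 0 on the second.

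Samples of 1 replicate number did not deviate together in every pair (r over 0.1 in 48 of 72 pairs, from -0.19 to 0.45), so the numbers were not taken to pair pigs. With the replicate block 3 member probes were called by diet, 0 by line outside ALDH2 and 0 for the interaction, the ALDH2 line difference was 0.67, and 13 pathway genes were called by diet and 4 by line.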
